A study of Mus musculus with 18 samples.

Results

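The imprinted Dlk1-Dio3 domain carries one of the largest miRNA groups of the mouse genome, and its members were followed here through small-RNA libraries of mammary tumours. Members were taken by name: every row of the miRNA table without a star, in any arm, that bears 1 of 45 miRNA numbers of the domain. This gave 47 rows of the 583 in the table, from 42 hairpins, and 3 of the 45 numbers had no row among those analysed here. The rule uses names and no measured value, though it was set with earlier results of these data known. The hairpins lie on the plus strand of mouse chromosome 12 over 180104 bp (chr12:109563692-109743795, GRCm38).

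Each library is a pool of tumour RNA from F1 mice of 1 AKXD recombinant inbred (RI) strain crossed to FVB/N-TgN(MMTV-PyVT)634Mul, a line in which the mouse mammary tumour virus promoter drives the polyoma middle T oncogene. All 18 pools carry the transgene, and there is no pool without it. The strains are numbers 2, 3, 7, 9, 10, 11, 13, 14, 16, 18, 20, 21, 22, 23, 24, 25, 27 and 28, and the labels state neither the ages of the mice nor how many tumours entered a pool. With 1 pool per strain (n = 1), a difference between a pair of strains has no replicate check, and a spread over n = 18 joins the differences among strains, pools and libraries.

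In this domain the paternal chromosome expresses protein-coding genes (Dlk1, Rtl1, Dio3), while the maternal chromosome expresses long noncoding RNAs (Meg3, anti-Rtl1, Rian, Mirg) from which the miRNAs are cut. The miRNAs are best known from embryo, placenta, brain and muscle, and the loss or gain of their expression as a group has been described in many tumours. Along the maternal transcript 4 blocks were compared: 6 hairpins at the Meg3 end, 5 within anti-Rtl1, 2 within Rian, and 29 from miR-379 to miR-410. In the GENCODE annotation of GRCm38, Mir770 lies in a Meg3 exon, and the 5 anti-Rtl1 hairpins lie antisense within an exon of Rtl1, which is on the minus strand. Mir341 and Mir370 lie in introns of Rian. In the last block the hairpins from Mir382 onwards lie in exons or introns of annotated Mirg, and those from Mir379 to Mir539 lie before its annotated start.

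A mature sequence was found in RefSeq (GRCm38.p6) for 37 of the 47 rows, 14 by the arm in the row name and 23 by the older naming convention, in which a row with no arm is the dominant arm. The most abundant rows of each block are shown, since the results below rest on them or on their absence. Capitals mark the seed, bases 2 to 8, which pairs with target transcripts. In the anti-Rtl1 block these are miR-127 (chr12:109592888-109592909), miR-136 (chr12:109595331-109595352) and both arms of miR-434 (5p at chr12:109594528-109594549, 3p at chr12:109594565-109594586), all on the plus strand:
miR-127-3p: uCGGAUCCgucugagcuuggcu
miR-136-5p: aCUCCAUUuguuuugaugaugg
miR-434-5p: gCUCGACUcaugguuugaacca
miR-434-3p: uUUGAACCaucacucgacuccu

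In the miR-379 to miR-410 block they are miR-379 (chr12:109709065-109709085), miR-541 (chr12:109742422-109742446) and miR-411 (chr12:109710190-109710210):
miR-379-5p: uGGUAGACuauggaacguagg
miR-541-5p: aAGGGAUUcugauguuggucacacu
miR-411-5p: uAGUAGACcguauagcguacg

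The leading rows of the Meg3 end and of Rian, which stayed low in these tumours, are miR-673-5p (chr12:109572004-109572025), miR-540-3p (chr12:109586122-109586141), miR-341 (chr12:109611556-109611576) and miR-370 (chr12:109618305-109618326):
miR-673-5p: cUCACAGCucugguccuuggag
miR-540-3p: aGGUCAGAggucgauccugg
miR-341-3p: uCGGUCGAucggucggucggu
miR-370-3p: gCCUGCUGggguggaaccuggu

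The 37 matched members had 37 distinct seeds, so none shared its seed with another. The miR-379 seed was also that of miR-1193-5p, another miRNA of the domain that is not a member. The table has a row miR-1193 without an arm, so no level is given for the 5p arm. Among all pairs of matched members, 3 differed by at most 5 bases over their whole length. miR-300 and miR-381 differed by 3 bases (86.4% identity), miR-376a and miR-376b by 3 (85.7%) and miR-495 and miR-543 by 4 (81.8%). How the authors divided reads between such rows is not stated, and their separate values are uncertain to that extent. The first 2 of these pairs are:
miR-300-3p: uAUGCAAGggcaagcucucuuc
miR-381-3p: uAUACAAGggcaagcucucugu
miR-376a-3p: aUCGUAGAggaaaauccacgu
miR-376b-3p: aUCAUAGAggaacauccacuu

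Depth ran from 4358311 miRNA reads in strain 7 to 14946857 in strain 27, of which 10433 (strain 7) to 43518 (strain 24) were members. Levels are CPM (reads per 1000000 miRNA reads) after scaling each library by a trimmed-mean factor, from 0.671 in strain 14 to 1.67 in strain 28. The factors of strains 10, 13, 14 and 20 (0.671 to 0.776) were the lowest and that of strain 28 the highest, so these 5 libraries stand apart, and results that rest on them are given with and without them. Of the tissue markers, the epithelial miRNAs (miR-200a, miR-200b, miR-200c, miR-141, miR-429) summed to 28510 (strain 16) to 54712 (strain 25) CPM. Skeletal muscle miRNAs (miR-1, miR-133a, miR-133b, miR-206) summed to 22345 (strain 9) to 303141 (strain 14) CPM.

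The members made up a small and fairly even part of the tumour miRNAs. Their share of miRNA reads was lowest in strain 14 (0.203%), had a median of 0.272% and was highest in strain 18 (0.408%) and strain 28 (0.403%). In scaled CPM the members summed to 1985 (strain 27) to 3610 (strain 13), with a median of 2756. Strain 28 was second by share of reads and below the median by CPM (2407), where its scaling factor enters. In pooled tissue, fewer cells that express a miRNA and less of it per cell cannot be told apart.

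Almost all of this signal came from the anti-Rtl1 block and the miR-379 to miR-410 block. Averaged over 18 strains, the 6 rows of anti-Rtl1 summed to 815 CPM (29.3% of the members' CPM) and the 32 rows from miR-379 to miR-410 to 1961 CPM (70.4%). The 7 rows of the Meg3 end summed to 4.21 CPM (0.151%) and the 2 rows of Rian to 3.85 CPM (0.138%). The anti-Rtl1 sum ran from 535 (strain 25) to 1203 CPM (strain 18). The sum from miR-379 to miR-410 ran from 1334 (strain 16) to 2688 CPM (strain 13). In no strain did the Meg3 end exceed 6.76 CPM or Rian exceed 8.12 CPM, and both were highest in strain 18.

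A mean of at least 10 CPM was reached by 15 of the 47 members, 4 in anti-Rtl1 and 11 from miR-379 to miR-410. Of these, 6 were at 100 CPM or more. Another 15 members lay between 1 and 10 CPM and 17 below 1 CPM. Reads were found in all 18 strains for 35 members, and 12 had none in 1 strain or more, where 3 reads of the deepest library would equal 0.193 CPM.

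**Figure D1:**
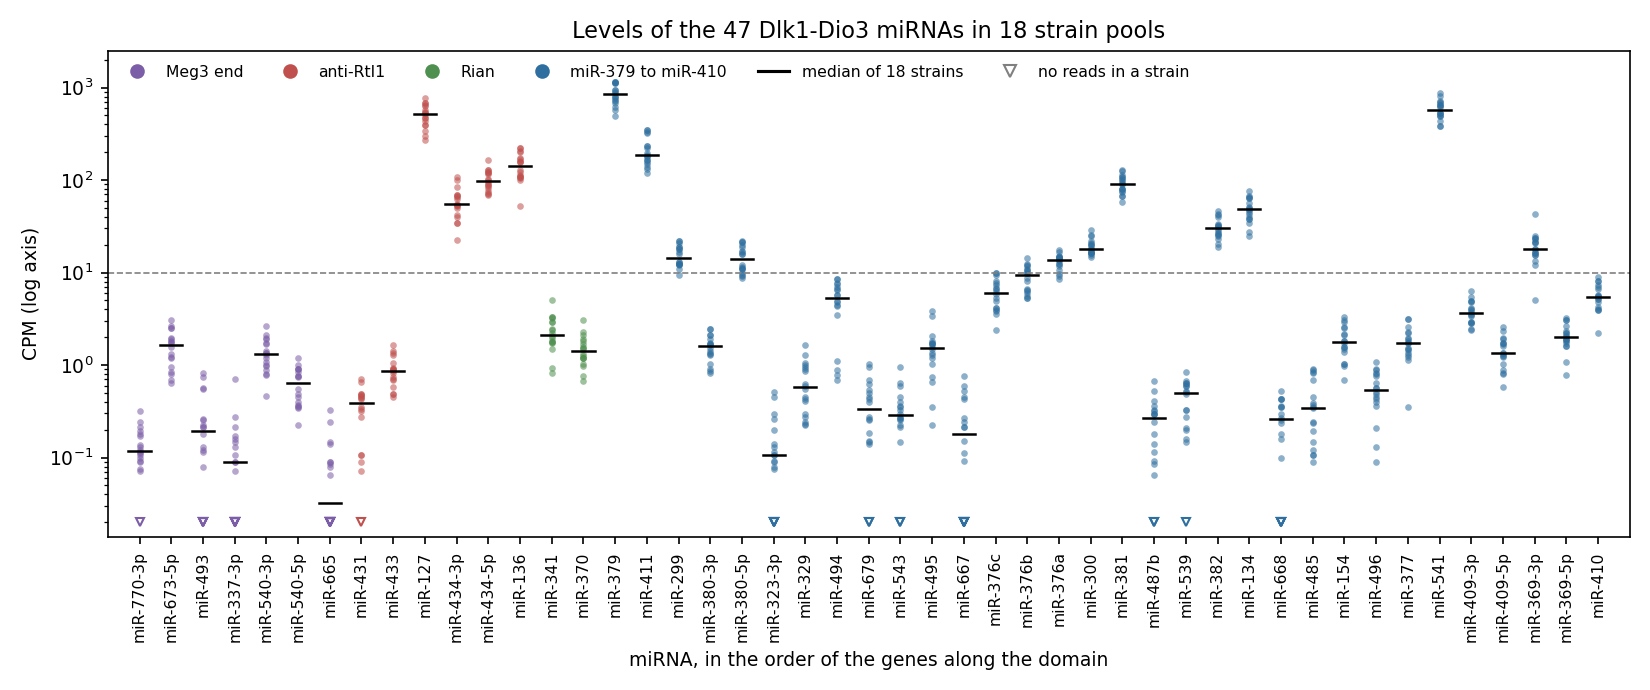
CPM on a log axis for each of the 47 members, 1 point per strain (18 strains), ordered along the domain and coloured by block; bars are medians, open triangles are strains without reads, and the dashed line is 10 CPM. Members above the line lie in anti-Rtl1 and from miR-379 to miR-410, next to members of the same blocks below 1 CPM.

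miR-379, the first miRNA of its block and the most abundant member, was lowest in strain 27 (495.3 CPM), had a median of 848 CPM and was highest in strain 10 (1152 CPM), with a mean of 864 ± 213 CPM (SD, n = 18). Strains 10, 18, 20, 13 and 2 formed the top, at 1127 CPM or more, and strains 16, 25 and 27 the bottom, at 612 CPM or less. miR-541 was lowest in strain 16 (383 CPM), had a median of 574 CPM and was highest in strain 13 (865 CPM). miR-411 was lowest in strain 21 (120 CPM), had a median of 186 CPM and was highest in strain 13 (346 CPM). For miR-411 the strains 10, 13, 20 and 24 stood at 324 CPM or more, and the others were at 236 CPM or less.

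miR-127, which lies antisense to Rtl1 and is complementary to its transcript, was the most abundant of the anti-Rtl1 block. It was lowest in strain 25 (268 CPM), had a median of 517 CPM and was highest in strain 18 (762 CPM), with a mean of 507 ± 139 CPM (SD, n = 18). miR-136 was lowest in strain 10 (53.1 CPM), had a median of 143 CPM and was highest in strain 24 (224 CPM). Strain 10 lay well under every other strain for miR-136, since the next lowest, strain 16, was at 101 CPM. miR-434-5p was lowest in strain 16 (69.1 CPM), had a median of 97.7 CPM and was highest in strain 18 (166 CPM). Its other arm, miR-434-3p, was lowest in strain 10 (22.5 CPM), had a median of 54.7 CPM and was highest in strain 22 (109 CPM). The 2 remaining anti-Rtl1 rows were scarce, miR-433 at 0.9004 CPM and miR-431 at 0.347 CPM on average.

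In the second block moderate levels were reached by miR-381 (91.3 CPM on average), miR-134 (49.1 CPM), a miRNA known from dendrites of neurons, and miR-382 (30.9 CPM). The hairpins of miR-487b (0.246 CPM) and miR-539 (0.431 CPM) lie between those of miR-381 and miR-382. miR-300 averaged 19.3 CPM, miR-299 15.5 CPM, miR-380-5p 14.6 CPM and miR-376a 13.2 CPM. Just under the limit of 10 CPM came miR-376b (8.96 CPM), miR-376c (6.13 CPM), miR-410 (5.66 CPM) and miR-494 (4.96 CPM). Hairpins less than 1 kb from abundant ones could be near the detection limit: miR-485 averaged 0.407 CPM and miR-668 0.243 CPM, while their neighbour miR-134 averaged 49.1 CPM.

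Where both arms of a hairpin were members, 1 arm was the more abundant. miR-380-5p averaged 14.6 CPM and miR-380-3p 1.58 CPM. miR-369-3p averaged 19.4 CPM and miR-369-5p 2.07 CPM. miR-409-3p averaged 3.85 CPM and miR-409-5p 1.45 CPM, and miR-540-3p 1.37 CPM and miR-540-5p 0.640 CPM. The row names do not always mark the abundant arm. miR-376b*, named as the passenger, averaged 25.1 CPM in these tumours, and miR-376b 8.96 CPM. miR-411* averaged 5.95 CPM, a small fraction of miR-411.

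At the Meg3 end, miR-673-5p was lowest in strain 24 (0.637 CPM), had a median of 1.66 CPM and was highest in strain 18 (3.08 CPM). miR-540-3p was lowest in strain 10 (0.463 CPM), had a median of 1.32 CPM and was highest in strain 18 (2.65 CPM). For miR-540-5p the lowest strain was 14 (0.227 CPM), the median 0.647 CPM and the highest strain 28 (1.19 CPM). miR-493 averaged 0.248 CPM, miR-770-3p 0.137 CPM, miR-337-3p 0.121 CPM and miR-665 0.0703 CPM. These 4 rows were without reads in 1 to 9 strains, so their order between strains is not readable. In Rian, miR-341 was lowest in strain 25 (0.827 CPM), had a median of 2.14 CPM and was highest in strain 18 (5.04 CPM). miR-370 was lowest in strain 9 (0.673 CPM), had a median of 1.42 CPM and was highest in strain 18 (3.08 CPM).

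Few of the members that passed 10 CPM had a wide range among strains. On the CPM + 1 scale the highest strain was at least 4-fold the lowest for 3 of 15 members, against 35.2% of all 281 rows that passed. At 2-fold the count was 13 of 15 members, against 90.4% of all rows. The SD of log2(CPM + 1) over strains had a median of 0.37 for the members and 0.45 for all rows. The 3 members past 4-fold were miR-369-3p, miR-434-3p and miR-136, and all were lowest in strain 10. Without strain 10 the count was 0 of 15 members, beside 79 of 283 rows.

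miR-369-3p had the largest SD of the 15 (0.57 log2). It was lowest in strain 10 (5.10 CPM), had a median of 18.0 CPM and was highest in strain 18 (42.9 CPM). The next highest strain, 21, was at 25.0 CPM, so the range was set by 1 strain at each end. miR-434-3p followed with an SD of 0.56 log2 and miR-136 with 0.52 log2. The smallest SDs were those of miR-300 (0.26 log2), at 14.8 (strain 9), 18.0 (median) and 28.9 CPM (strain 18), and of miR-376a (0.27 log2), at 8.46 (strain 10), 13.8 (median) and 17.6 CPM (strain 22). For comparison, read counting alone gives a typical SD of 0.10 log2 for miR-300 and 0.12 log2 for miR-376a, and covers counting error only.

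Members stood high in strain 18, though the strain with most of the highest levels depended on the scaling. Of the 15 members, 7 had their highest level in strain 18, against 8.9% of all 281 rows. Those 7 were miR-127, miR-434-5p, miR-134, miR-299, miR-300, miR-369-3p and miR-381. In strain 18 the members stood on average 0.49 log2 above their own mean, and 14 of 15 were above their median. The median deviation of all rows in that strain was 0.06 log2. Strain 22 followed with 14 of 15 above the median and a mean deviation of 0.28 log2. Of the 32 members under 10 CPM, 10 were highest in strain 18, against 10.7% of the 290 rows under 10 CPM, and 7 in strain 22, against 8.62%. With total counts alone 9 of 15 members were highest in strain 18, against 6.38% of all rows. With upper-quartile scaling 3 were (3.91% of all rows), and strain 20 led with 5 (6.05%). With median-of-ratios scaling 4 were (5.71%), and strain 10 led with 5, against 25.7% of all rows. Under these 3 scalings the members' mean deviation in strain 18 was 0.67, 0.34 and 0.39 log2, with 13 or 14 of 15 above their median. The median deviation of all rows there was 0.24, -0.09 and -0.03 log2. The count for strain 18 was 4 of 15 when strain 16 or strain 28 was left out of the scaling (17 of 280 and 16 of 277 rows). It was 8 of 15 without strain 10 (28 of 283 rows).

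Low levels were shared among strains 25, 16 and 27. Strain 25 held the lowest level of 5 of the 15 members, against 6.41% of all rows, and the mean deviation there was -0.40 log2. In strains 16 and 27 the mean deviation was -0.31 log2. The median deviation of all rows was 0.05 log2 in strain 25, -0.13 in strain 16 and 0.06 in strain 27. The count of lowest levels in strain 25 was 2 with upper-quartile scaling and 5 with total counts or median of ratios. Strain 10 was split within both large blocks. The anti-Rtl1 members stood at -0.57 log2 on average, from -1.36 for miR-136 and -1.26 for miR-434-3p to 0.47 for miR-127. Those from miR-379 to miR-410 averaged 0.06 log2, from -1.65 for miR-369-3p to 0.78 for miR-411. The summed anti-Rtl1 level in strain 10 was 843 CPM, above the median of 807 CPM. With total counts alone the block averages were -1.05 and -0.40 log2, so the sign for the second block depended on the scaling. The median deviation of all rows in strain 10 moved with it, from -0.05 log2 to -0.53 log2 with total counts. In each of the 4 scalings the average of the second block stood above that median, and the anti-Rtl1 average was lower than that of the second block. Strain 10 held the lowest level of 4 of the 15 members (miR-136, miR-369-3p, miR-376a, miR-434-3p), against 18.9% of all rows, and the highest level of miR-379.

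**Figure D2:**
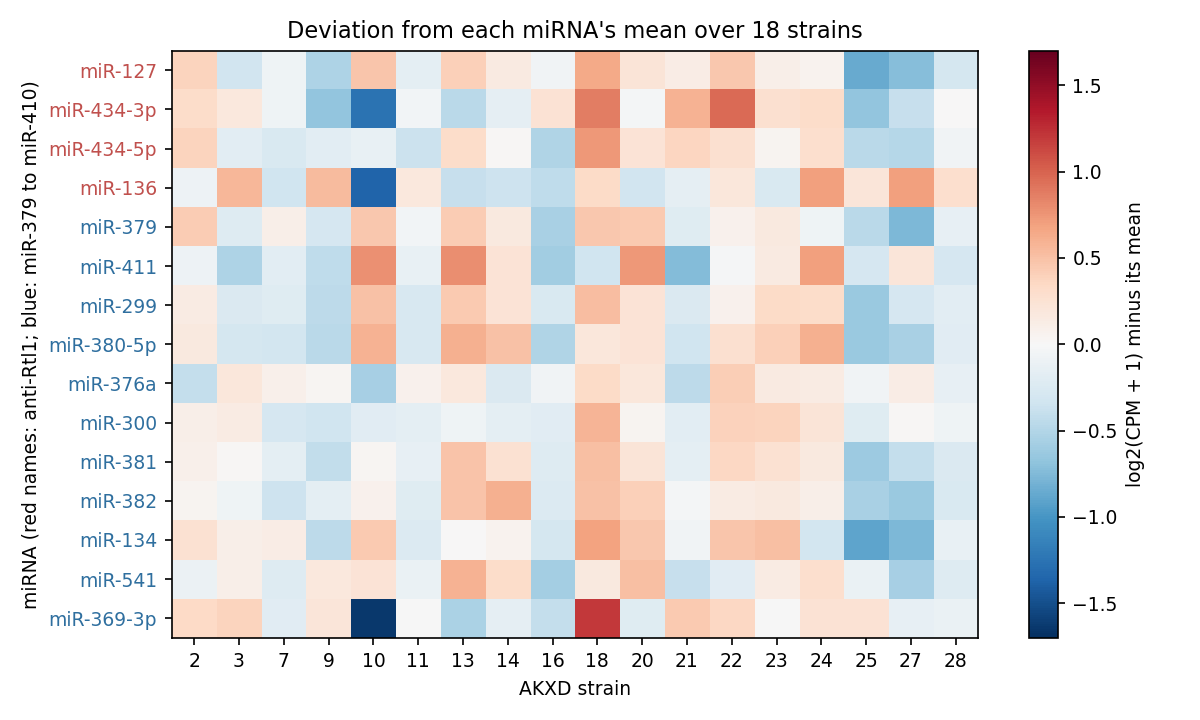
Heat map, with trimmed-mean scaling, of log2(CPM + 1) minus each member's mean over 18 strains, for the 15 members at 10 CPM or more (rows, in gene order) and the strains (columns). Strain 18 is red for 14 of 15 members, strain 25 mostly blue, and strain 10 is dark blue for miR-434-3p, miR-136 and miR-369-3p while miR-379 and miR-411 are red there.

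Markers of other cell types were set beside these strains. In strain 18 the skeletal muscle list summed to 79041 CPM, 11th from the highest of 18, and the mesenchymal and fibroblast list (miR-199a-3p, miR-199a-5p, miR-214) to 875 CPM, 6th from the highest. The smooth muscle list (miR-143, miR-145) summed to 16828 CPM in strain 18, 17th from the highest. The neural list (miR-9, miR-124, miR-128, miR-137) was at its lowest in strain 18, at 317 CPM, and miR-124 did not exceed 0.782 CPM in any strain. In strain 25 the epithelial list was at its highest and the muscle list 16th from the highest. Strain 10 was lowest of all for the leukocyte list (1573 CPM) and 15th for skeletal muscle (36556 CPM). It was 2nd for the epithelial list (53708 CPM) and for smooth muscle (57496 CPM), and 3rd for the endothelial list (17240 CPM). The part of these cell types in the members' levels was not tested.

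miR-494 was the member that separated strains 10, 13, 14 and 20 from the rest. It was at 0.697 to 1.10 CPM in these 4 strains and at 3.45 to 8.50 CPM in the other 14, and the ranges did not overlap. These 4 libraries were set apart on other miRNAs in an earlier analysis of these data. The low values rest on 6, 9, 7 and 12 reads in strains 10, 13, 14 and 20. It was 1 of 47 members that was lower in each of the 4 than in every other strain, against 3.85% of all 571 distinct rows. None of 47 members was higher in each of the 4, against 2.63% of all rows.

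The next question was whether members of different blocks move together from strain to strain. The most abundant row of each large block served as reference: miR-127 for anti-Rtl1 and miR-379 for the second block, whose genes lie 116214 bp apart. Over the 18 strains the pair was correlated, with Pearson's r = 0.83 and Spearman's rho = 0.85 of log2(CPM + 1) (two-sided permutation test, p = 3e-05 for each, 1 pair tested). Without strains 25 and 27, the farthest from the median of miR-127, r was 0.76 and rho 0.80. With each strain left out in turn rho lay between 0.80 and 0.88. Strains 10, 13, 18, 20 and 2 were high in both miRNAs and strains 25, 27 and 9 low in both, while strain 16 was low in miR-379 alone.

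Each row that passed the filter was then regressed on miR-127 with limma, and p-values were adjusted over all 280 rows by Benjamini-Hochberg. A slope of 1 means that a row doubles when miR-127 doubles. Of the 14 members tested, 7 rose with miR-127, against 3.57% of all rows, and 0 fell, against 4.64% of all rows (1 at an unadjusted p under 0.05, miR-136). In either direction, 8 of 14 members and 70 of 280 rows had an unadjusted p under 0.05. The members' median slope was 0.59 and that of all rows -0.02. The 7 were miR-134, miR-379, miR-381, miR-299, miR-382 and miR-380-5p from the second block and miR-434-5p from anti-Rtl1. By block this is 6 of 11 from miR-379 to miR-410 and 1 of 3 in anti-Rtl1.

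Among these, miR-134 had the steepest slope, 0.90 ± 0.15 (SE, limma adjusted p = 0.00308), and miR-434-5p the shallowest, 0.65 ± 0.15 (limma adjusted p = 0.0119). Only 3 rows outside the members rose with miR-127: miR-130b, miR-30e* and miR-296-3p, the last from the imprinted Gnas locus. The members that did not pass were miR-541, miR-411, miR-300, miR-434-3p, miR-369-3p, miR-376a and miR-136. miR-136, whose gene is 2481 bp from that of miR-127 on the same antisense transcript, had a slope of -0.62 ± 0.26 (limma adjusted p = 0.136). The pair had a Spearman's rho of -0.48 over the 18 strains.

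With miR-379 as the reference, 8 of 14 members rose, against 7.14% of all rows, and 0 fell, against 7.86% of all rows (1 at an unadjusted p under 0.05, again miR-136). In either direction, 10 of 14 members and 88 of 280 rows had an unadjusted p under 0.05. The members' median slope was 0.67 and that of all rows 0.06. miR-127 itself had a slope of 0.95 ± 0.17 (limma adjusted p = 0.00349). miR-134, miR-380-5p, miR-299, miR-382, miR-381 and miR-434-5p rose as they did with miR-127, and miR-541 rose with a slope of 0.63 ± 0.17 (limma adjusted p = 0.0170). By block, 6 of 10 of the second block rose and 2 of 4 of anti-Rtl1. miR-411, whose gene is the next one after that of miR-379, had a slope of 0.67 ± 0.28 (limma adjusted p = 0.108). miR-136 again lay below 0, at -0.72 ± 0.29 (limma adjusted p = 0.103).

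The calls with miR-379, more than its slopes, depended on the libraries that stand apart. Without strains 10, 13, 14 and 20, 2 of 14 members (miR-127 and miR-134) rose with miR-379, and no other row of the 281 rose. Without these strains and strain 28, 0 of 281 rows rose. Most slopes were about as large without the 4 strains, at 1.16 for miR-134, 1.05 for miR-127, 0.87 for miR-434-5p, 0.82 for miR-380-5p, 0.72 for miR-381, 0.69 for miR-299 and 0.67 for miR-382, and that of miR-541 was 0.40. Without the 5 strains the slope of miR-127 was 1.01 (limma adjusted p = 0.114). Against miR-127, 7 of 14 members rose without the 4 strains and 6 of 14 without the 5, each beside 8 of 281 rows. Without the 4 strains miR-434-3p was called and miR-380-5p was not, and without the 5 miR-299 was also lost. Single strains also bore on 2 of the calls with miR-379: miR-541 was lost without strain 16 (limma adjusted p = 0.0628) or strain 27 (0.0626), and miR-434-5p without strain 16 (0.0729).

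**Figure D3:**
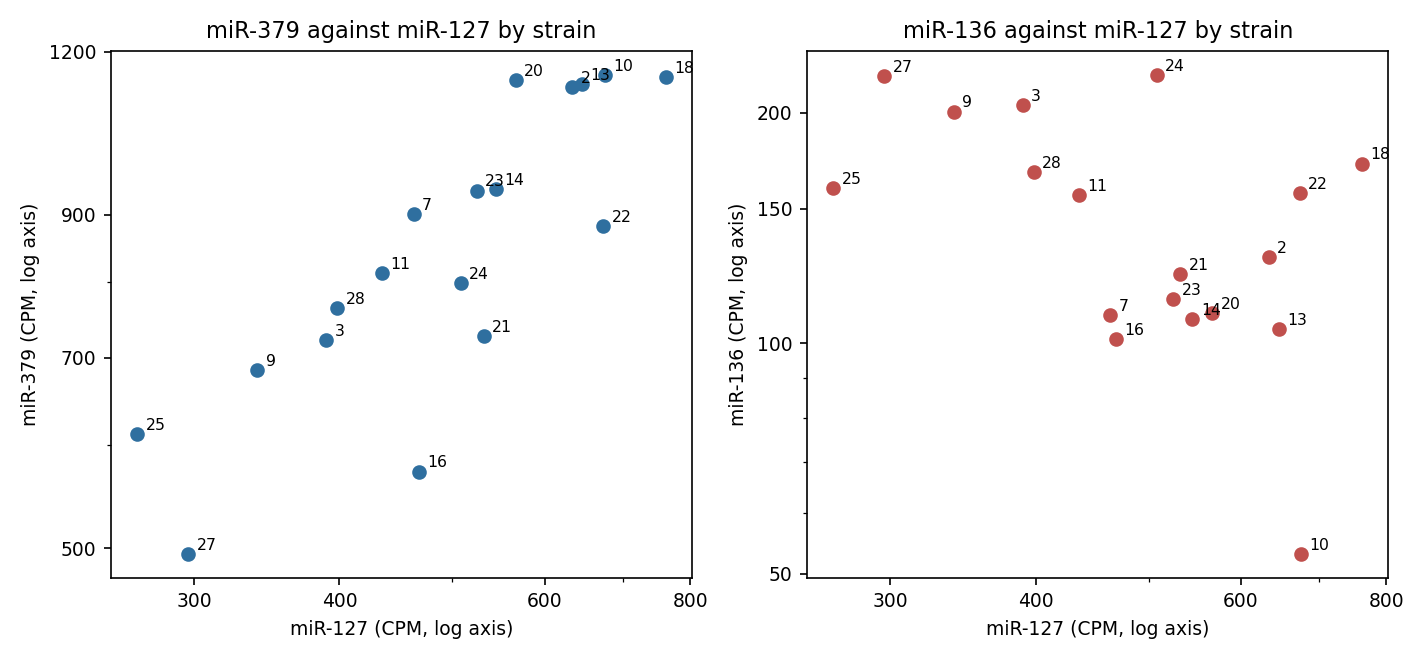
miR-379 (left) and miR-136 (right) against miR-127 in CPM on log axes, 1 point per strain with its number. miR-379 rises with miR-127 (rho 0.85), and miR-136 does not, with strain 10 far below the other strains at 53.1 CPM.

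**Figure D4:**
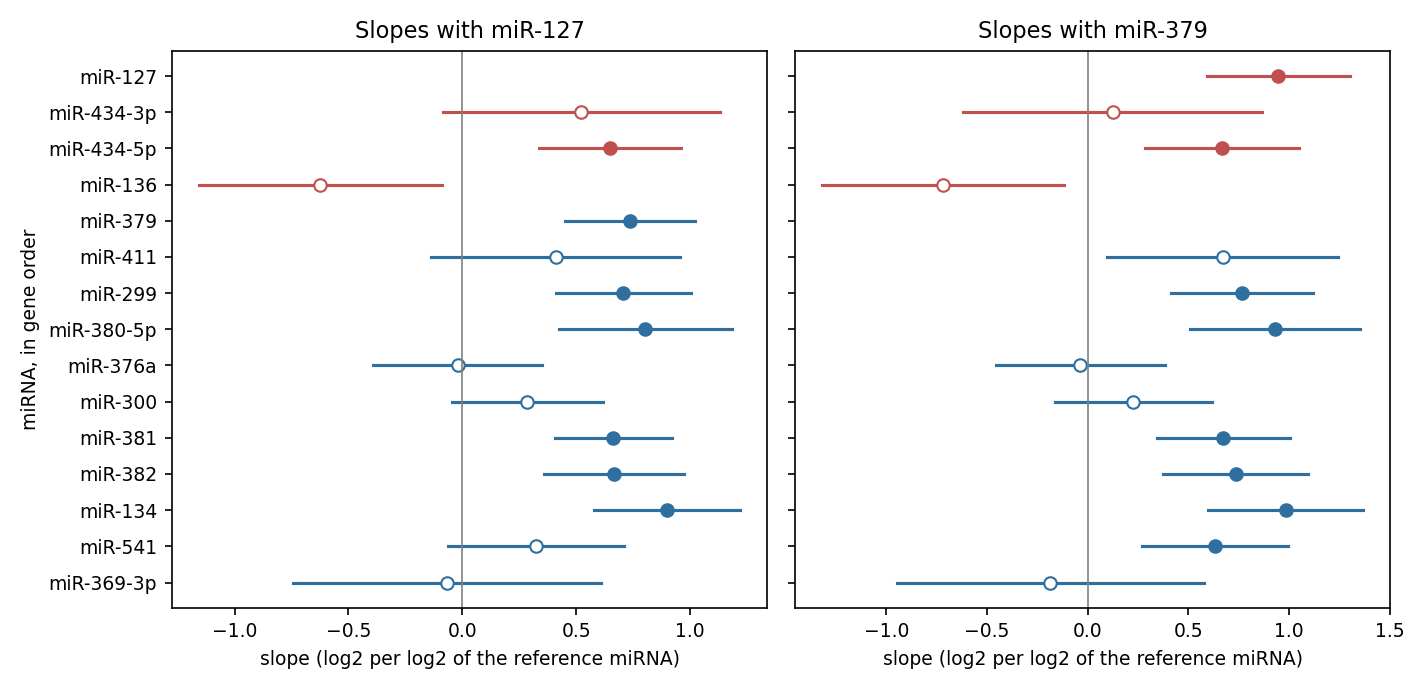
Slopes of the members at 10 CPM or more on miR-127 (left) and on miR-379 (right), with 95% confidence intervals; filled points passed an adjusted p of 0.05, red is anti-Rtl1 and blue miR-379 to miR-410. Filled points lie between 0.63 and 0.98, and miR-136 is the member farthest below 0 in both panels.

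Whether a member follows 1 reference more than the other was tested in a fit with both. Of 13 members, 0 had different slopes by limma at an adjusted p under 0.05, against 0.358% of all 279 rows. At an unadjusted p under 0.05 there were 2 members, beside 63 of 279 rows. These 2 members were miR-434-3p, whose slope on miR-127 exceeded that on miR-379 by 2.65 ± 0.98 (limma adjusted p = 0.125), and miR-541, where the difference was -1.54 ± 0.53 (limma adjusted p = 0.114). Without strain 10 the difference for miR-434-3p passed the threshold, 1 of 13 members beside 12 of 281 rows. It also passed without strains 10, 13, 14 and 20, beside 6 of 280 rows. Since both references vary together, these differences have wide intervals: for miR-434-5p the 95% interval ran from -0.81 to 1.51, which holds differences of either sign.

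The likeness of members was also described pair by pair. Over 55 pairs within the second block the median rho was 0.52, over 6 pairs within anti-Rtl1 0.30, and over 44 pairs between the blocks 0.40. Over 39340 pairs of all 281 rows the median was 0.0072. All these pairs share the same 18 libraries and their scaling. The closest pair was miR-381 and miR-382 (rho 0.92), and miR-299 with miR-380-5p came next (0.88). The lowest rho was that of miR-411 with miR-369-3p (-0.56), at opposite ends of the second block.

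Other rows of the domain and other imprinted miRNAs were counted in the same fits. Of 17 further rows of the domain, most of them passenger arms, 4 passed the filter (miR-127*, miR-136*, miR-376a*, miR-376b*), and 0 of these rose or fell with either reference by limma. In each fit 2 of the 4 had an unadjusted p under 0.05, beside 70 of 280 rows with miR-127 and 88 with miR-379. With miR-127 these were miR-127* (slope 0.54) and miR-136* (0.37). With miR-379 they were miR-376a* (-1.42) and miR-376b* (-0.55). Of the imprinted Sfmbt2 intron cluster, 10 of 45 rows were tested, and miR-297c fell with both references, against 4.64% and 7.86% of all rows. Among the 27 cell-type marker rows tested in 9 lists, 0 rose and 0 fell with miR-127 by limma (2 at an unadjusted p under 0.05, beside 70 of 280 rows). With miR-379, 0 rose and 2 fell, miR-142-3p of leukocytes and miR-145 of smooth muscle, against 7.86% of all rows. At an unadjusted p under 0.05 there were 3, beside 88 of 280 rows.

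Outside the domain the strongest relations with miR-127 were negative. miR-29a, a regulator of collagen transcripts, had a slope of -0.84 ± 0.17 (limma adjusted p = 0.00572), its passenger miR-29a* -1.25 ± 0.30 and miR-186 -0.76 ± 0.18 (both 0.0153). With miR-379 they were positive: miR-30e* 1.09 ± 0.21 (limma adjusted p = 0.00349), miR-30a* 0.97 ± 0.20 (0.00757) and miR-151-3p 0.82 ± 0.18 (0.00853). Each of these rows rising with miR-379 was highest in strain 10. Without strains 10, 13, 14 and 20 no row outside the members rose with miR-379.

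Both arms of a hairpin come from 1 precursor, so their levels were compared over strains. Among 57 hairpins of the table with both arms at 10 CPM or more, 15 (26.3%) had arms that rose together by Spearman's rho (permutation test, adjusted over the 57). Of the 4 in the domain, 0 passed, with 1 (miR-434) at an unadjusted p under 0.05. The rho was 0.55 for the arms of miR-434 (permutation test, adjusted p = 0.0631), 0.42 for miR-127 (0.188), 0.36 for miR-376a (0.257) and 0.16 for miR-136 (0.599). By Pearson's r, miR-127 with miR-127* (r = 0.62, permutation test, adjusted p = 0.0200) and the arms of miR-434 (r = 0.55, 0.0491) passed. The 15 of 57 hairpins whose arms rose together by rho, all outside the domain, also did so by r. Outside the domain only miR-27a, miR-339 and miR-455 were added by r. Without strain 13, 14, 16 or 28 the arms of miR-434 also passed by rho, beside 16 or 17 hairpins in all.

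The ratio of arms moved most for miR-376a. On the log2(CPM + 1) scale the difference between miR-376a and miR-376a* was -0.60 in strain 21 and 2.35 in strain 13. It stood at 1.12 or more in strains 10, 13, 14 and 20, at 0.95 in strain 23 and at 0.41 or less in every other strain. This came from the passenger row, which was at 0.927 to 5.23 CPM in these 4 strains and at 7.09 to 21.5 CPM in the other 14, without overlap. Of all 571 distinct rows, 22 (3.85%) were likewise lower in each of these 4 strains than in every other strain. The difference between miR-434-5p and miR-434-3p ran from 0.07 (strain 16) to 1.96 (strain 10), and strain 13 was second at 1.61.

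For miR-127 the difference between arms was lowest in strain 28 (4.47) and highest in strain 10 (5.60). For miR-136 the order was turned, with the lowest in strain 10 (2.12) and the highest in strain 27 (4.01). The SD of the log2 ratio over strains was 0.92 for miR-376a, 0.52 for miR-136, 0.47 for miR-434 and 0.35 for miR-127, and its median over all 57 hairpins was 0.50. Strain 10 held the highest or lowest ratio in 3 of these 4 hairpins, and in 57.9% of all 57, a share that is high across the table.

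**Figure D5:**
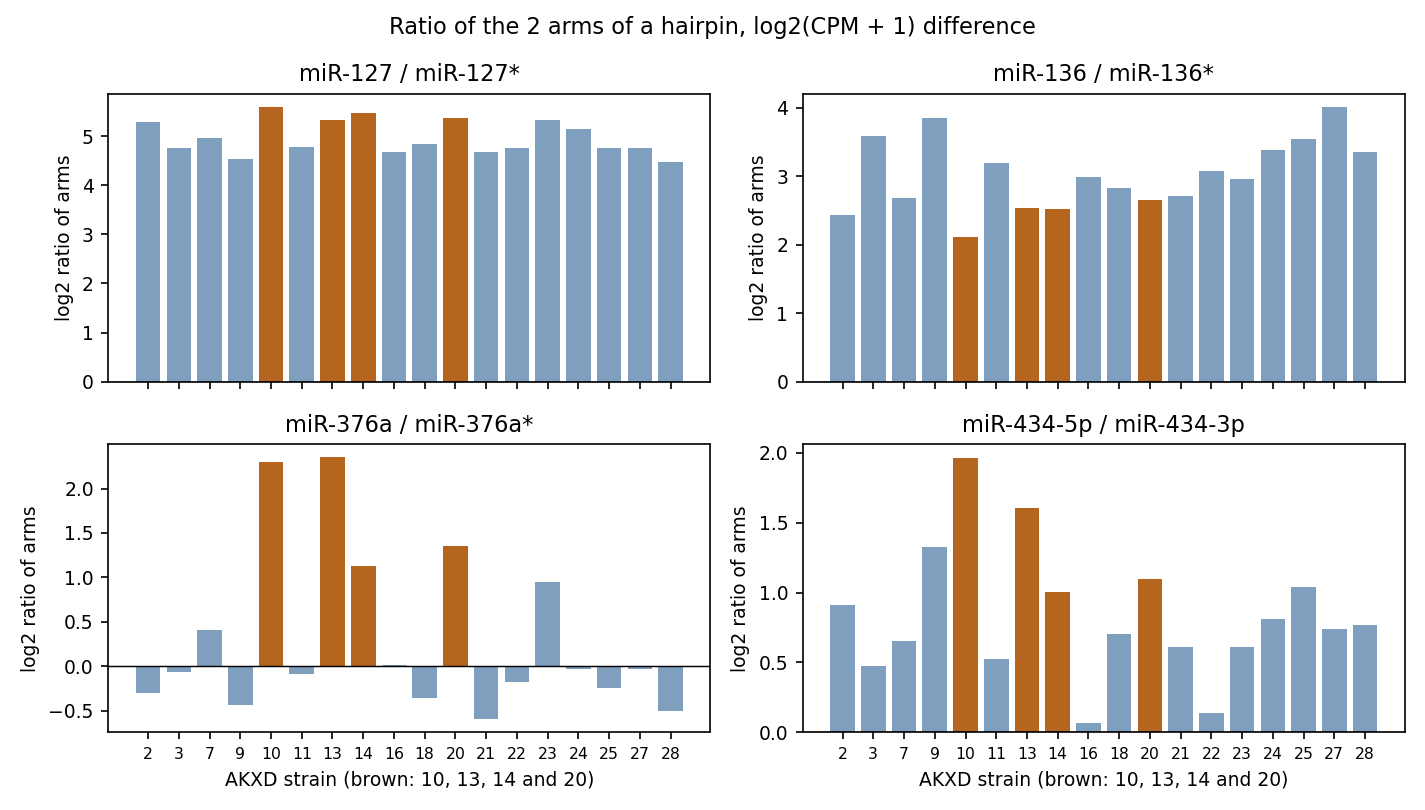
Difference in log2(CPM + 1) between both arms of 4 hairpins, 1 bar per strain; strains 10, 13, 14 and 20 are brown. For miR-376a the brown bars reach 1.12 to 2.35 while most other strains lie near 0, and strain 10 has the highest bar for miR-127 and miR-434 and the lowest for miR-136.

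Libraries also differed in how levels depended on base composition. Over rows outside the domain, log2 levels in strain 10 changed by -0.15 per 10 percentage points of GC, and in strain 21 by 0.17. The negative value means that rows with less GC stood relatively higher in strain 10. Of the members that were lowest in strain 10, miR-369-3p has 23.8% GC, miR-136 36.4%, miR-376a 42.9% and miR-434-3p 45.5%. The other matched members past 10 CPM at 45.5% GC, miR-381 and miR-380-5p, stood 0.03 and 0.59 log2 above their means there. With the GC slope of each library as a covariate, 7 of 14 members rose with miR-127 and 8 of 14 with miR-379, as without it. Of all 280 rows, 14 and 19 rose. The part of base composition in the low levels of strain 10 was not tested.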

How the data were processed

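The deposited values are log2 values with 2 decimals, in 583 mature miRNA rows and 18 library columns. Per the submitters' processing notes BWA and mm9 were used, with no version or role stated. Per the labels' protocols, RNA came from snap-frozen tumours by mirVana isolation, and the design text names the Illumina Genome Analyzer IIx as sequencer. Which miRNA annotation, counter and filters were used is not given in these sources. When the log2 is undone, the values of a library are whole reads multiplied by 1 constant (100.0% of 3818 values of up to 50 reads, within 0.006 log2). A row without reads is 0, and in strain 25 a single read is 0 as well.

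Rows were turned back to reads, 8 sets of identical rows (20 rows) were counted once (571 distinct rows), and scaling factors came from trimmed means of M values (30% of ratios and 5% of abundances trimmed). Fits used log2(CPM + 1), which understates changes of low rows, on the 281 rows that averaged 10 CPM or more. Because the unit is log2, limma stood in for a count model, in version 3.58.1 (trended variances) in R 4.3.3, with a threshold of 0.05 after Benjamini-Hochberg adjustment. Single pairs had two-sided permutation tests with 100000 resamples. Python 3.11.15, numpy 2.4.6, scipy 1.17.1, pandas 2.3.3 and matplotlib 3.10.9 were used, and the fits were tested on simulated data. The p-values measure the spread between these pools.

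The members, lists and tests were chosen with earlier results of these data known. By rule, values were given in full for both reference miRNAs, the 3 most abundant rows of each block, the members with the largest and smallest SD, both arms of hairpins with 2 measured arms, all members of blocks with under 4 rows past the filter, and the 3 rows outside the members with the smallest p in each fit. miR-494, miR-485, miR-668 and the 3 similar pairs were named after their values or sequences were seen. Coordinates come from GRCm38, and the deposited table has none.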

Additional observations from a re-analysis of the deposited data

How the results depend on the processing

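With other scalings, filters and pseudocounts, 7 or 8 of 14 members rose with miR-127 (7 of 46 with no filter), beside 9 to 16 of all rows. Among rows of at least 100 CPM, 2 of 5 members rose, beside 4 of 138 rows. With miR-379 the count was 5 of 14 under total counts alone (6 of 281 rows) and 3 of 5 at 100 CPM (13 of 138 rows). It was 2 of 14 without strains 10, 13, 14 and 20 (2 of 281 rows), and 0 without these and strain 28 (0 of 281 rows). In total counts alone no scaling factor is applied. The difference between slopes passed for 1 member (miR-434-3p) without those 4 or 5 strains (6 and 9 of 280 rows). The 4-fold spread was reached by 1 of 6 members at 100 CPM (43 of 139 rows). It was reached by 0 of 15 without the 4 or 5 strains (56 and 52 of 282 rows). A 2-fold spread was reached by 13 of 15 (90.4% of all rows). An 8-fold spread was reached by 0 of 15, but all rows were not counted at 8-fold, so this count has no share to be read against. Arms that rose together numbered 4 of 4 under total counts alone (33 of 58 over all hairpins). They numbered 2 of 4 by Pearson's r. Outside the domain, the 15 hairpins that passed by rho also passed by r, with miR-27a, miR-339 and miR-455 added. Without the 4 or 5 strains, 2 of 4 domain pairs passed by rho (15 and 13 of 58 over all hairpins). Members highest in the leading strain numbered 5 of 15 with upper-quartile scaling (strain 20, 17 of 281 rows). With median-of-ratios scaling they were 5 of 15 (strain 10, 72 of 280 rows). At 100 CPM they were 2 of 6 (strain 13, 4 of 139 rows), and with no filter 17 of 47 (strain 18, 56 of 571 rows). Leaving out 1 strain at a time gave 7 to 8 members with miR-127 (7 to 11 of all rows) and 6 to 8 with miR-379 (17 to 25). Different slopes were called for 0 to 1 member (0 to 12 of all rows), and the rho between references was 0.80 to 0.88. Past 4-fold were 0 to 3 members (79 to 99 rows), and 0 to 1 arm pairs passed (13 to 17 hairpins). Members highest in the leading strain numbered 4 to 8 (16 to 31 rows). This was strain 18, or strain 22 with 7 where strain 18 was left out. The cause of these shifts was not tested, and the settings with a higher limit or fewer strains also hold fewer rows or strains. No paired analysis was possible because each strain is 1 pool. Members under 1 CPM hold too few reads to rank strains.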
